A study of Mus musculus with 9 samples.

Results

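The TNF superfamily ligands described here are 10 genes of the mouse, chosen by name as the rows Tnf, Lta, Ltb, Fasl, Tnfsf4, Tnfsf9, Tnfsf10, Tnfsf12, Tnfsf13 and Tnfsf14 of a table of 23951 gene symbols. All 10 rows were found, and each was read in all 9 libraries. The RNA came from mast cells matured over 4 to 6 weeks out of marrow taken from C57BL/6 mice of wild-type genotype. The culture medium held interleukin-3 and stem cell factor, each at 10 ng/ml. There were 3 groups of 3 libraries. Cells of the first were left untreated. Those of the second had received IgE specific for the hapten DNP at 0.5 µg/ml for 18 h, and give the IgE libraries. Those of the last had received that IgE and then DNP-coupled bovine serum albumin at 50 ng/ml for 2 h, and give the antigen libraries. The albumin carries several DNP groups and cross-links IgE held by its receptor on the cell surface. The labels put cells with the IgE receptor and CD117 at over 95% of the culture. They do not say whether libraries of a group came from separate cultures or mice. The p-values therefore cover the spread among these libraries alone, and that spread may be technical.

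TNF superfamily ligands are mostly made as membrane proteins with an extracellular domain that assembles into trimers, and some are then cut from the surface by proteases. The trimers bind receptors of the TNF receptor superfamily, which recruit TRAF adaptors to switch on NF-kB and MAP kinases or, where the receptor has a death domain, caspases. Mast cells are known for storing TNF protein in granules and for making new Tnf mRNA after the IgE receptor is cross-linked. The values below are FPKM (fragments per kilobase of transcript and per unit of mapped reads), a level per length. The transcript lengths used are not known, so the order and shares of the ligands rest on the values as given. In a bulk culture, more cells of a kind and more RNA per cell cannot be told apart.

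Depth, read from the step between low values, was 29.8 to 33.2 M reads in the untreated, 31.9 to 39.7 M in the IgE and 20.6 to 28.3 M in the antigen libraries. In antigen replicate 3, chromosome X genes were at 0, all 437 of those detected in each of the remaining libraries. The 10 ligands lie on chromosomes 1, 3, 11 and 17. Of 10 mast cell markers, 8 averaged at least 1 FPKM in every group, while Cpa3 and Cma1 were listed at 0 in all 9 libraries. For any row at 0 throughout, absent RNA and a gene left uncounted cannot be told apart from these values. The 11 markers of T and NK cells, which make several of these ligands, summed to 0.729 to 1.09 FPKM in untreated, 0.736 to 0.884 in IgE and 0.978 to 1.96 in antigen libraries, with none at a group mean of 1 FPKM and Cd3e and Cd3g at 0 throughout. The 6 B cell markers summed to 2.30 to 2.57, 1.87 to 2.22 and 0.788 to 1.10 FPKM in the same order, with Ms4a1 and Pax5 at 0. Cd79b made up most of these sums, at 2.23 ± 0.0642, 2.00 ± 0.162 and 0.803 ± 0.181 FPKM. The 8 macrophage and dendritic cell markers summed to 21.5 to 23.1, 26.0 to 26.8 and 38.5 to 39.5 FPKM, so this sum moved with the treatments. Cd68, a lysosomal protein, was at 8.62 ± 0.310, 16.1 ± 0.245 and 30.2 ± 0.478 FPKM, while Emr1 was at 12.2 ± 0.475, 9.36 ± 0.280 and 7.75 ± 0.0620 FPKM. Sums in the same group order were 1.28 to 1.77, 1.62 to 2.04 and 0.858 to 2.43 FPKM for neutrophil, 120.5 to 146, 105 to 114 and 72.2 to 76.6 FPKM for basophil, and 434 to 439.7, 361 to 375 and 392 to 404 FPKM for megakaryocyte markers. Most of the basophil sum was Prss34, with means of 120.3, 92.1 and 54.7 FPKM in that order. Mcpt8, the other basophil marker, had rising means of 12.4, 16.9 and 19.5 FPKM, with overlap between IgE and antigen libraries. Itga2b made up most of the megakaryocyte sum, with means of 431, 362.5 and 395 FPKM. Gp9 had means of 5.23, 4.52 and 2.92 FPKM, and Pf4 was between 0 and 0.121 FPKM in every library. The part of other cells in the ligand values was not tested.

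Compared with IgE alone, antigen raised all 8 ligands that could be tested, and the steepest rises were those of Tnfsf14, Tnf and Tnfsf10. Compared with untreated libraries, Ltb was not called. A gene was tested where it reached 1 FPKM in at least 3 libraries. That left 10890 genes and dropped the ligands Lta and Fasl, which sat near 0 in every library. Between antigen and IgE libraries, 8 of 8 tested ligands were called higher and 0 lower (limma on log2(FPKM + 1), Benjamini-Hochberg adjusted p under 0.05). Among all tested genes 36.2% were called higher and 34.9% lower, 71.1% in either direction. The groups did not overlap for 8 of 8 ligands and for 74.2% of all tested genes. The median log2 difference was 0.96 over the ligands and -0.01 over all tested genes. IgE alone, without antigen, moved fewer ligands and in both directions: 3 of 8 were called higher and 2 lower, beside 14.5% and 13.1% of all tested genes, 27.5% in either direction. The median size of the log2 difference, sign aside, was 0.27 for the ligands in that step and 0.11 for all genes.

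**Figure D1:**
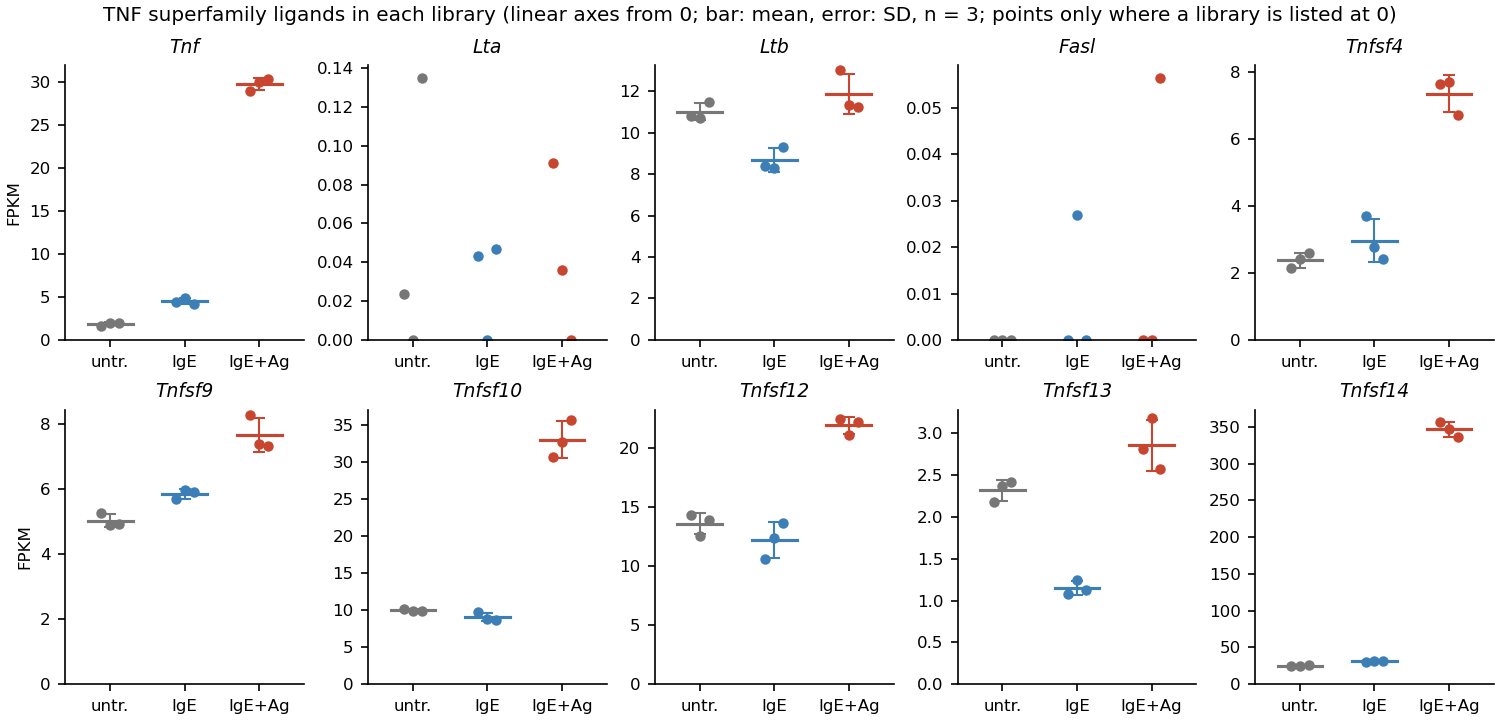
FPKM (linear axes from 0) of each ligand in the untreated, IgE and IgE plus antigen (IgE+Ag) libraries, with points for libraries, bars for group means and SD as error (n = 3). The antigen libraries lie above all others for 7 ligands, Ltb is lowest with IgE, and Lta and Fasl, drawn as points only, stay under 0.14 FPKM.

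Tnf encodes the founding cytokine of the family, a trigger of inflammation and endothelial activation. It measured 1.67, 1.97 and 1.97 FPKM in untreated, 4.37, 4.87 and 4.23 FPKM in IgE and 28.98, 30.01 and 30.4 FPKM in antigen libraries. The 3 groups formed separate steps with no overlap. IgE alone came with a 2.40-fold higher mean (log2 0.94, SE 0.0607, adjusted p = 0.000183), which ranked 17 from the top of 10890 genes for that comparison. Antigen added a 6.63-fold rise on top of IgE (log2 2.49, SE 0.0607, adjusted p = 7.37e-09), rank 91. Antigen libraries were 15.9-fold above untreated ones (adjusted p = 1.29e-09). The lowest library still rested on an estimated 87.2 reads. Tnf mRNA is known to be unstable because its 3′ untranslated region holds repeats of the pentamer ATTTA, written as DNA, which decay factors such as tristetraprolin bind. In the annotated Tnf transcript (GENCODE M21, GRCm38, chromosome 17, minus strand) that region holds 8 such pentamers in 764 bases, or 10.5 per kilobase, against a median of 1.24 per kilobase over 21005 genes. The stretch of 30 bases richest in them is shown with its 5 pentamers in capitals.
Tnf AU-rich stretch: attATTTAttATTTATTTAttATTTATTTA

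Among the other ligands only Lta had the overlapping double form ATTTATTTA in its annotated 3′ untranslated region, which 6.17% of all genes had. Per kilobase, the pentamer was found 7.91 times in Tnfsf9, 5.24 times in Lta, 2.00 times in Tnfsf10, 1.87 times in Tnfsf4, 1.69 times in Tnfsf12, 1.13 times in Fasl and 0.981 times in Tnfsf14, and not at all in Ltb and Tnfsf13. Whether the pentamers bear on the levels was not tested.

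Lta and Ltb flank Tnf on chromosome 17 in the same gene cluster, and neither showed its steps. Lta encodes lymphotoxin alpha, a secreted relative of TNF known from lymphocytes. It was at 0.0236, 0 and 0.135 FPKM in untreated, 0.0434, 0 and 0.0466 FPKM in IgE and 0.0909, 0.0361 and 0 FPKM in antigen libraries, at most an estimated 6.2 reads. Each group held a library listed at 0, and the groups overlapped. Ltb encodes the membrane subunit lymphotoxin beta, which holds lymphotoxin alpha on the surface and signals through Ltbr. It was at 10.8, 10.7 and 11.5 FPKM in untreated, 8.40, 8.27 and 9.33 FPKM in IgE and 13.01, 11.3 and 11.3 FPKM in antigen libraries. IgE libraries lay below all others, a 1.27-fold lower mean than untreated (log2 -0.31, SE 0.0658, adjusted p = 0.0102). Antigen libraries were 1.37-fold above IgE ones (log2 0.41, SE 0.0658, adjusted p = 0.000552) and overlapped the untreated ones (log2 0.10, SE 0.0658, adjusted p = 0.217). The genes on the outer sides were also measured. Nfkbil1, beyond Lta, was at 11.4 ± 0.760, 11.5 ± 0.349 and 7.59 ± 0.382 FPKM in untreated, IgE and antigen libraries, and Lst1, beyond Ltb, at 71.3 ± 5.17, 63.1 ± 2.35 and 51.5 ± 4.70 FPKM.

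Tnfsf14, also called LIGHT, binds the herpesvirus entry mediator Tnfrsf14 and the lymphotoxin beta receptor and costimulates T cells. It was the highest of the ligands in all 9 libraries. Its values were 24.2, 24.3 and 25.9 FPKM in untreated, 30.8, 31.9 and 30.9 FPKM in IgE and 357, 347 and 336 FPKM in antigen libraries. As for Tnf the groups made separate steps, but the first was small, 1.26-fold (log2 0.32, SE 0.0375, adjusted p = 0.000890). The second was 11.1-fold (log2 3.43, SE 0.0375, adjusted p = 1.94e-10), rank 28 of 10890 genes by size. Against untreated cells the mean was 13.98-fold higher (adjusted p = 1.37e-10).

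Tnfsf9 (4-1BB ligand), a costimulator of T cells, shares a stretch of chromosome 17 with Tnfsf14, with Cd70, another ligand of the family, between them. Tnfsf9 measured 5.24, 4.88 and 4.92 FPKM in untreated, 5.67, 5.95 and 5.89 FPKM in IgE and 8.26, 7.38 and 7.30 FPKM in antigen libraries. Its groups did not overlap, yet the steps were the smallest among the called rises, 1.31-fold from IgE to antigen (log2 0.34, SE 0.0523, adjusted p = 0.000462) and 1.16-fold from untreated to IgE (log2 0.19, SE 0.0523, adjusted p = 0.0322). The call for IgE against untreated was lost when any 1 of 5 libraries was left out (untreated replicate 2 or 3, or any IgE replicate, adjusted p = 0.0528 to 0.0983). Gm11110, annotated on the opposite strand and overlapping Tnfsf9, was at 1.70 to 2.30 FPKM in all 9 libraries, and reads of both could not be separated if strand was not used. Cd70 was between 0 and 0.281 FPKM in every library. C3, on the far side of Tnfsf14, was at 0.189 ± 0.00954 FPKM in IgE and 0.492 ± 0.0660 FPKM in antigen libraries.

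Upstream sequence was available for 7 of the 10 ligands (RefSeq, GRCm38.p6), all but Tnfsf4, Tnfsf9 and Tnfsf12. The 3 shown parted in level: Tnf and Tnfsf14, which rose most, and Ltb, the neighbour of Tnf with a smaller change. Each is the run of 250 bases before the annotated start, read 5′ to 3′ on the strand of the gene: chr17:35202008-35202257 (minus) for Tnf, chr17:57194182-57194431 (minus) for Tnfsf14 and chr17:35194257-35194506 (plus) for Ltb. Capitals mark matches on either strand to GGAAA (the core bound by NFAT), TGANTCA (the AP-1 site) or the kappa B consensus.
Tnf: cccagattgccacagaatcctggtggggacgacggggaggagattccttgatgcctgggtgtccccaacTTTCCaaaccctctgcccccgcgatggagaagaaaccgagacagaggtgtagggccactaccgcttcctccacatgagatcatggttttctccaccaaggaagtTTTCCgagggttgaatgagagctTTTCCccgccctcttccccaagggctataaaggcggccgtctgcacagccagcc
Tnfsf14: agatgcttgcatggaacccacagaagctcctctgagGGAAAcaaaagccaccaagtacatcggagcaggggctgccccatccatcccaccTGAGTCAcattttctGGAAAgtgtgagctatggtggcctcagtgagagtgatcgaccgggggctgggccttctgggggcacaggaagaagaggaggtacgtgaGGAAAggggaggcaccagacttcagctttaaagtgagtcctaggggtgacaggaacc
Ltb: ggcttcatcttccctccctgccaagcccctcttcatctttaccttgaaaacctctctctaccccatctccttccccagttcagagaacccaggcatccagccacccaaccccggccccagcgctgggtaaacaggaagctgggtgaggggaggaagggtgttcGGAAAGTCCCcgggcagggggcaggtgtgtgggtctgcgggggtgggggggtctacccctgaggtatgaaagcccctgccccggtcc
Tnf had 3 matches to GGAAA, 181, 77 and 54 bases before the start, and a TATAAA at 29 bases. Tnfsf14 had 3 matches to GGAAA, at 214, 145 and 57 bases, and 1 to TGANTCA at 160 bases. Ltb had 1 match to the kappa B consensus at 87 bases, which overlaps its only GGAAA. The NFAT core was in 6 of the 7 ligand windows and in 55.6% of 32851 windows of the same length. TGANTCA was in 2 of 7 (6.75% of all windows), the kappa B consensus in 1 of 7 (7.25%) and TATAAA in 2 of 7 (12.4%). The CREB site TGACGTCA was in 0 of 7 (1.55%), and so was the Egr site GCGNGGGCG (4.70%). A match is a run of letters, and no binding was measured.

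Tnfsf10 encodes TRAIL, which induces apoptosis through receptors with a death domain. It lies alone among the ligands on chromosome 3. It stood at 10.2, 9.89 and 9.91 FPKM in untreated, 9.69, 8.82 and 8.61 FPKM in IgE and 30.7, 32.6 and 35.7 FPKM in antigen libraries. The antigen libraries lay far above the rest, a 3.65-fold rise over IgE (log2 1.76, SE 0.0609, adjusted p = 5.14e-08), rank 269 of 10890. IgE libraries were all below the untreated ones, but the difference was not called (log2 -0.13, SE 0.0609, adjusted p = 0.148). Untreated and IgE groups did not overlap for 6 of 8 ligands and for 43.2% of all tested genes.

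Tnfsf4 and Fasl lie near each other on chromosome 1, with Tnfsf18 between them. Tnfsf4, the OX40 ligand, is a costimulator known for promoting type 2 helper T cells. It measured 2.14, 2.41 and 2.58 FPKM in untreated, 3.69, 2.79 and 2.43 FPKM in IgE and 7.65, 7.71 and 6.72 FPKM in antigen libraries. Untreated and IgE libraries overlapped (log2 0.22, SE 0.114, adjusted p = 0.185), and IgE replicate 1 was the highest of these 6. Without it the log2 difference was 0.10 (SE 0.0855, adjusted p = 0.476). Antigen libraries lay above all of them, 2.48-fold over IgE (log2 1.08, SE 0.114, adjusted p = 4.17e-05). Fasl encodes the Fas ligand, a killing molecule of cytotoxic T and NK cells. It was listed at 0 in 7 libraries and at 0.0269 FPKM in IgE replicate 2 and 0.0564 FPKM in antigen replicate 3, an estimated 3.1 reads at most. Tnfsf18 was listed at 0 in all 9 libraries. Tested without the filter, neither Fasl nor Lta was called in any of the 3 comparisons (adjusted p = 0.368 to 0.792 and 0.790 to 0.866), and a difference could be missed at so few reads.

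Tnfsf12 and Tnfsf13 follow each other on chromosome 11 and are also transcribed together into a readthrough mRNA, listed in the table as a row of its own, Tnfsf12Tnfsf13. Tnfsf12 encodes TWEAK, a ligand of tissue repair that acts on Tnfrsf12a. It was at 14.3, 12.6 and 13.9 FPKM in untreated, 10.6, 12.4 and 13.6 FPKM in IgE and 22.5, 21.1 and 22.2 FPKM in antigen libraries. Untreated and IgE libraries overlapped (log2 -0.15, SE 0.0839, adjusted p = 0.221), and antigen libraries lay above both, 1.80-fold over IgE (log2 0.80, SE 0.0839, adjusted p = 3.98e-05). Adding the readthrough row to Tnfsf12 left that rise called (log2 0.62, adjusted p = 0.000118).

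Tnfsf13 encodes APRIL, a survival factor for plasma cells. It was at 2.18, 2.37 and 2.41 FPKM in untreated, 1.08, 1.25 and 1.12 FPKM in IgE and 2.82, 3.18 and 2.58 FPKM in antigen libraries. IgE libraries lay below all others and antigen libraries above. The mean fell 2.01-fold with IgE alone (log2 -0.63, SE 0.0667, adjusted p = 0.000603), rank 45 from the bottom of 10890 genes, and was 2.48-fold above IgE with antigen (log2 0.84, SE 0.0667, adjusted p = 7.13e-06). The readthrough row went the opposite way. It measured 2.47, 2.11 and 2.53 FPKM in untreated, 3.01, 3.10 and 3.03 FPKM in IgE and 2.14, 1.59 and 2.12 FPKM in antigen libraries. It was higher with IgE than without (log2 0.27, SE 0.0838, adjusted p = 0.0473) and lower with antigen than with IgE (log2 -0.46, SE 0.0838, adjusted p = 0.00114). Summed, both rows were at 4.69 ± 0.236, 4.20 ± 0.131 and 4.81 ± 0.136 FPKM (n = 3 each). On the sum the fall with IgE was no longer called (log2 -0.13, SE 0.0451, adjusted p = 0.0658), and the rise from IgE to antigen was smaller (log2 0.16, SE 0.0451, adjusted p = 0.0123). The readthrough row held 50.5% ± 3.06 of the sum in untreated, 72.6% ± 1.20 in IgE and 40.5% ± 6.33 in antigen libraries. How reads in exons common to both rows were divided is not known, so the Tnfsf13 values are uncertain on their own. Tnfsf13os is annotated on the opposite strand, overlapping Tnfsf13, and its reads could not be separated if strand was not used.

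**Figure D2:**
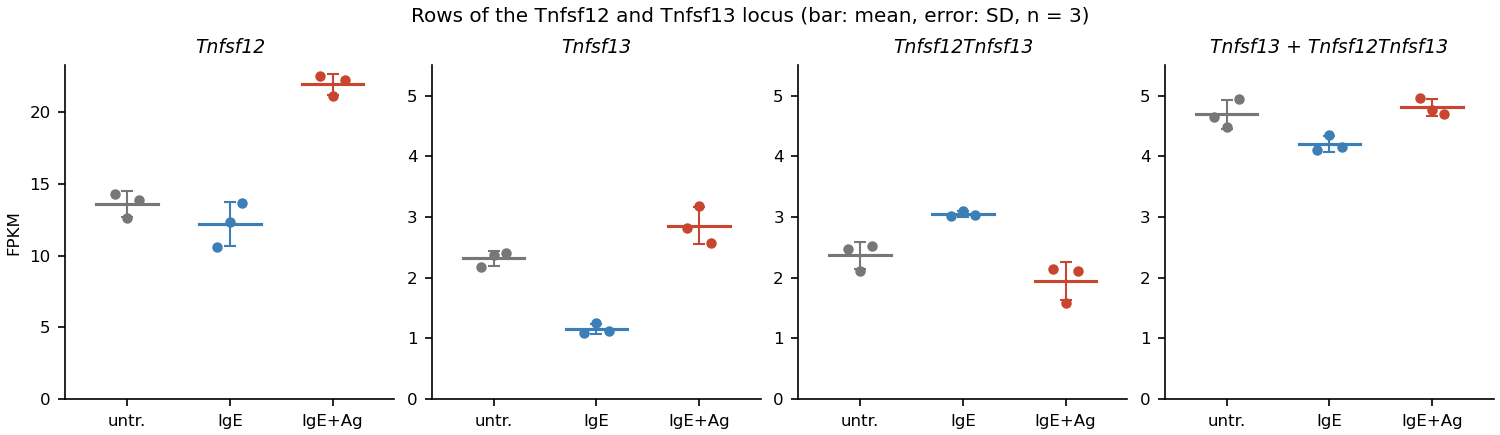
FPKM (linear axes from 0) of Tnfsf12, Tnfsf13, the readthrough row Tnfsf12Tnfsf13 and the sum of the last pair in each library, with bars for group means and SD as error (n = 3). Tnfsf13 dips with IgE where the readthrough row peaks, and their sum runs from 4.20 to 4.81 FPKM between group means.

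The comparisons share libraries: antigen versus IgE and antigen versus untreated have the antigen libraries in common, and the IgE libraries enter both steps. From untreated to antigen, 7 of 8 ligands were called higher and 0 lower, beside 37.2% and 34.4% of all tested genes, 71.7% in either direction. The groups did not overlap for the same 7 and for 78.3% of all tested genes. The exception was Ltb. Tnf, Tnfsf9 and Tnfsf14 were called higher in both steps. Ltb and Tnfsf13 fell with IgE and rose with antigen. Tnfsf4, Tnfsf10 and Tnfsf12 passed in the antigen step and not in the IgE step, and the difference between the steps was not tested. For Tnfsf13, antigen libraries were 1.23-fold above untreated (log2 0.21, SE 0.0667, adjusted p = 0.0185). That call was lost without untreated replicate 1 or antigen replicate 2 (adjusted p = 0.0652 and 0.0614) and on the sum with the readthrough row (log2 0.03, adjusted p = 0.571).

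**Figure D3:**
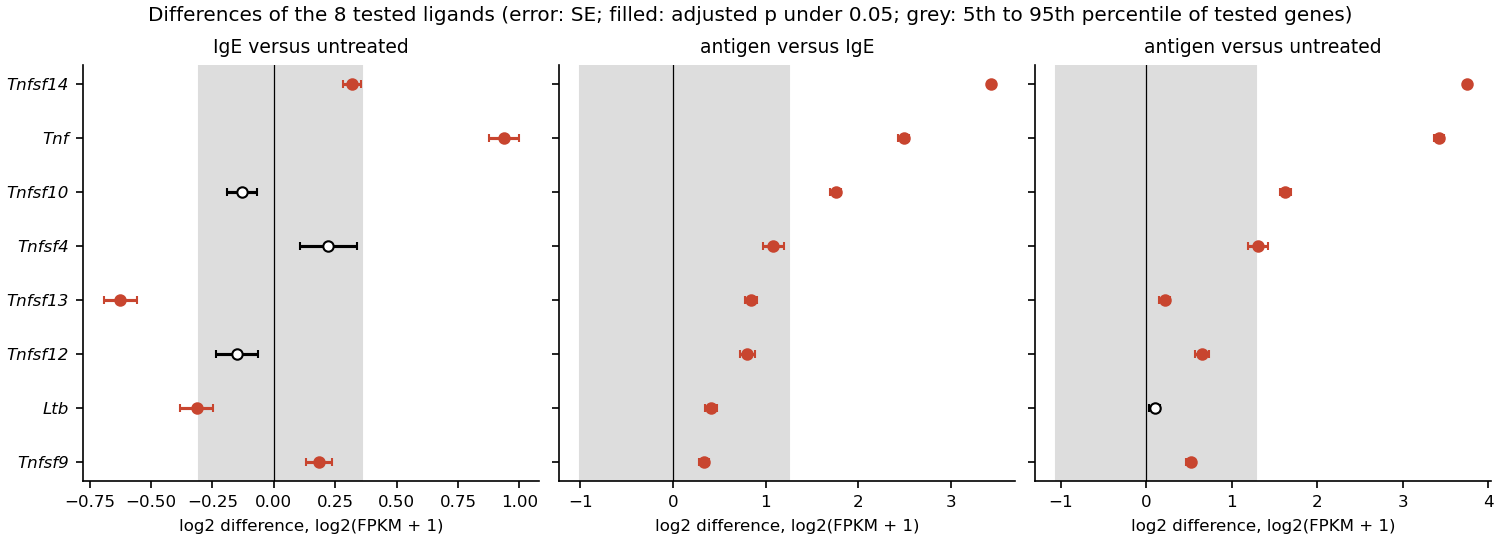
Log2 differences on the log2(FPKM + 1) scale of the 8 tested ligands in the 3 comparisons, with SE as error, filled points for adjusted p under 0.05 and a grey band from the 5th to the 95th percentile of all tested genes. Tnfsf14 (3.43), Tnf (2.49) and Tnfsf10 (1.76) lie above the band for antigen versus IgE, and for IgE versus untreated Tnf (0.94) lies above it and Tnfsf13 (-0.63) and Ltb (-0.31) below.

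The order of the levels changed with antigen. In untreated cells it ran Tnfsf14, Tnfsf12, Ltb, Tnfsf10, Tnfsf9, Tnfsf4, Tnfsf13 and Tnf, with Tnfsf4 and Tnfsf13 overlapping between libraries and Lta and Fasl below. With IgE, Tnf passed Tnfsf4 and Tnfsf13, and Tnfsf10 and Ltb overlapped. With antigen, Tnfsf10 and Tnf came next after Tnfsf14, with no library of one reaching the other, and Tnfsf9 and Tnfsf4 overlapped. Summed over the 10 ligands, FPKM was 71.02 ± 2.08 in untreated, 75.6 ± 1.08 in IgE and 461 ± 9.41 in antigen libraries (n = 3 each). Tnfsf14 made up 34.9% ± 0.618, 41.3% ± 0.646 and 75.2% ± 0.763 of the sum. Without it the sums were 46.2 ± 1.28, 44.4 ± 0.878 and 114 ± 1.47 FPKM, with the antigen libraries (113 to 116 FPKM) apart from the other 6 (43.6 to 47.3 FPKM). The share of Tnf was 2.63% ± 0.251, 5.94% ± 0.425 and 6.46% ± 0.285 in the same order. That of Ltb was 15.5% ± 0.204, 11.5% ± 0.707 and 2.57% ± 0.165.

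**Figure D4:**
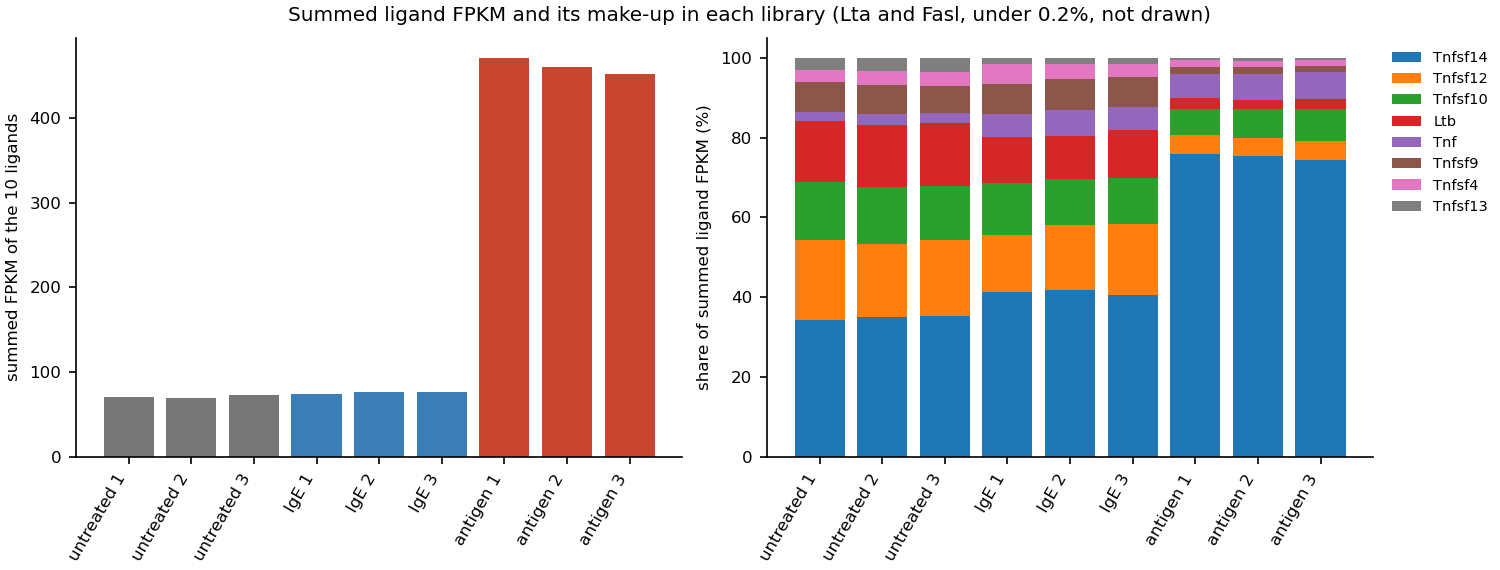
Left, summed FPKM of the 10 ligands in each library on a linear axis from 0, and right, the share of each ligand in that sum in percent. The sum is 452 to 471 FPKM in the antigen libraries against 69.1 to 76.2 FPKM in the others, and Tnfsf14 takes 74.3% to 75.8% of it with antigen.

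Among receptors of the ligands, some rose and others fell with antigen in the same cultures. Of 28 receptor genes, 15 passed the filter, and 6 were called higher and 6 lower against IgE, with a median log2 difference of 0.22. Those shares are near the 36.2% and 34.9% of all tested genes, so the counts do not set the receptors apart. With zeros on chromosomes X and Y of antigen replicate 3 treated as missing, the counts were 7 and 7. Of all 10890 tested genes, 4096 were then higher and 3944 lower. With IgE alone 0 were higher and 2 lower, beside 14.5% and 13.1% of all tested genes. From untreated to antigen 6 were higher and 7 lower, beside 37.2% and 34.4%. Tnfrsf9, the receptor of Tnfsf9, rose from 2.80, 2.94 and 2.46 FPKM in IgE to 127, 128 and 129 FPKM in antigen libraries, 46.8-fold (log2 5.11, SE 0.0608, adjusted p = 3.17e-10), while its ligand rose 1.31-fold. Tnfrsf12a, the receptor of Tnfsf12, went from 1.57, 1.001 and 1.41 to 47.5, 49.8 and 45.7 FPKM (log2 4.39, adjusted p = 4.34e-09). Tnfrsf1b, a TNF receptor without a death domain, went from 4.35, 4.47 and 4.67 to 29.6, 31.2 and 31.4 FPKM (log2 2.53, adjusted p = 7.8e-10). Fas, whose ligand was near 0, went from 1.40 ± 0.236 to 12.4 ± 0.794 FPKM (log2 2.49, adjusted p = 5.37e-08). Tnfrsf1a, the TNF receptor that carries a death domain, was at 0.0576 to 0.277 FPKM in the 6 libraries without antigen and 0.0374 to 0.212 FPKM with it.

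Receptors of the other ligands moved less or fell. Ltbr, shared by Ltb and Tnfsf14, went from 6.52 ± 0.553 to 8.76 ± 0.228 FPKM with antigen (log2 0.38, adjusted p = 0.000464), and Tnfrsf10b, the TRAIL receptor of the mouse with a death domain, from 1.04 ± 0.0832 to 1.45 ± 0.0764 FPKM (log2 0.26, adjusted p = 0.00234). Outside the antigen libraries, Tnfrsf10b reached 1 FPKM in IgE replicates 2 and 3 only. It therefore needed the antigen libraries to pass the filter, which favoured its call as higher. Tnfrsf11b, a soluble receptor that also binds TRAIL, fell from 1.27, 1.13 and 1.21 to 0.747, 0.689 and 0.884 FPKM (log2 -0.32, adjusted p = 0.000989), and the decoy receptors Tnfrsf22 and Tnfrsf23 were under the filter, at 0.126 ± 0.0423 and 0.0948 ± 0.0562 FPKM and at 0.0386 ± 0.0188 and 0.0258 ± 0.0163 FPKM. Tnfrsf14, the other receptor of Tnfsf14, was at 3.44 ± 0.560 FPKM in untreated, 2.30 ± 0.347 in IgE and 1.70 ± 0.285 in antigen libraries, lower with IgE (log2 -0.42, adjusted p = 0.0351) and not called for the antigen step (log2 -0.29, adjusted p = 0.0608). From untreated to antigen it was called lower (log2 -0.72, adjusted p = 0.000804), with no overlap. Tnfrsf13b, a receptor of Tnfsf13, fell from 10.8 ± 0.762 to 5.39 ± 0.654 FPKM (log2 -0.89, adjusted p = 2.76e-05). Tnfrsf4, the receptor of Tnfsf4, was at 1.27 ± 0.264 and 1.63 ± 0.272 FPKM and not called (log2 0.22, adjusted p = 0.0904). Ngfr, the low-affinity neurotrophin receptor, was the other receptor that fell with IgE alone, from 13.4 ± 0.248 to 8.75 ± 0.535 FPKM (log2 -0.56, adjusted p = 0.000472). With antigen Ngfr fell further, to 3.89 ± 0.284 FPKM (log2 -0.99 against IgE, adjusted p = 9.13e-07).

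**Figure D5:**
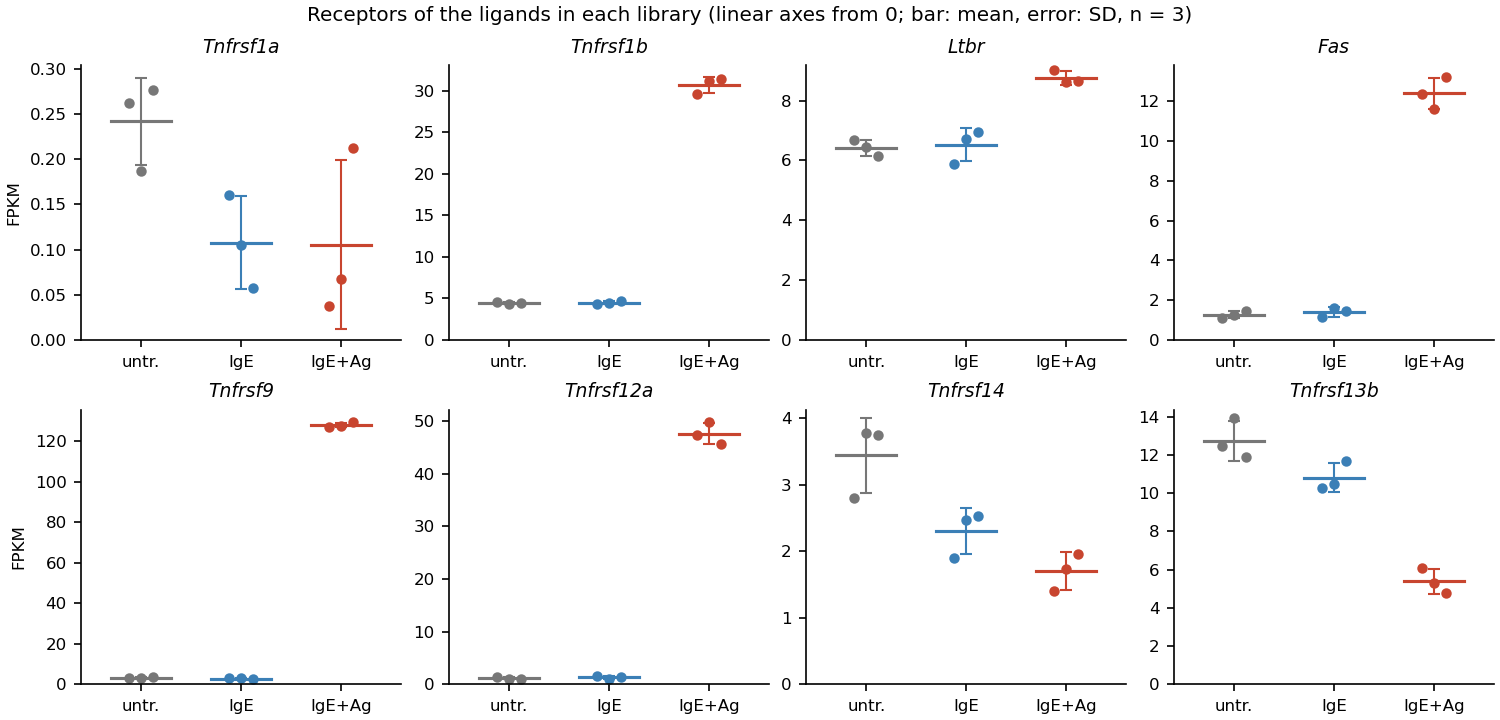
FPKM (linear axes from 0) of 8 receptors of the ligands in each library, with bars for group means and SD as error (n = 3). Tnfrsf1b, Ltbr, Fas, Tnfrsf9 and Tnfrsf12a lie higher in the antigen libraries than in the other 6, Tnfrsf1a stays under 0.28 FPKM, and the means of Tnfrsf14 and Tnfrsf13b are lowest with antigen.

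Genes that release the ligands from the membrane moved in both directions. Of 11 genes for shedding and processing, 10 were tested, and 7 were higher and 2 lower with antigen than with IgE, beside 36.2% and 34.9% of all tested genes. Rhbdf1 and Rhbdf2 encode inactive rhomboid proteins needed to bring Adam17, the protease that cuts TNF from the surface, to its place. Rhbdf2 rose from 5.80 ± 0.977 to 42.4 ± 0.921 FPKM (log2 2.68, adjusted p = 4.16e-08) and Rhbdf1 from 1.92 ± 0.170 to 9.91 ± 0.173 FPKM (log2 1.90, adjusted p = 1.22e-08). Adam17 itself, named after its values were seen, fell from 33.3 ± 1.51 to 28.4 ± 0.401 FPKM (log2 -0.22, adjusted p = 0.000670). Adam10, a protease that sheds Fas ligand, rose from 56.7 ± 1.75 to 95.7 ± 4.71 FPKM (log2 0.75, adjusted p = 8.09e-07). Furin, a protease that cleaves Tnfsf12 and Tnfsf13, went from 187, 176 and 269 FPKM in IgE to 717, 748 and 734 FPKM in antigen libraries (log2 1.82, adjusted p = 5.15e-06), with IgE replicate 3 above the others of its group. With IgE alone 0 genes of this list were called higher and 1 lower, beside 14.5% and 13.1% of all tested genes. That gene was Timp3, a tissue inhibitor of Adam17, which fell from 8.46 ± 0.825 to 4.09 ± 0.392 FPKM (log2 -0.89, adjusted p = 0.000384).

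Among 21 adaptors and regulators downstream of the receptors, all tested, 11 were higher and 5 lower with antigen, beside 36.2% and 34.9% of all tested genes. With IgE alone 1 was higher and 4 lower, beside 14.5% and 13.1%. With zeros on chromosomes X and Y of antigen replicate 3 treated as missing, 6 were lower, beside 1546 of all 10890 tested genes. The IgE and untreated values are unchanged in that setting, so only the estimate of the spread differs. Cflar, an inhibitor of caspase-8, was at 22.9 ± 0.260 and 74.99 ± 2.30 FPKM (log2 1.67, adjusted p = 2.43e-09) in IgE and antigen libraries. Map3k14, the NF-kB inducing kinase, measured 1.95 ± 0.0397 and 11.2 ± 0.428 FPKM (log2 2.05, adjusted p = 3.61e-09). The adaptor Traf3 measured 4.94 ± 0.139 and 16.5 ± 0.562 FPKM (log2 1.56, adjusted p = 8.52e-09). The adaptors Traf1 and Traf2 tied in adjusted p, with Traf1 at 0.750 ± 0.116 and 9.14 ± 0.513 FPKM (log2 2.53, adjusted p = 1.23e-08) and Traf2 at 11.6 ± 0.282 and 28.1 ± 0.721 FPKM (log2 1.21, adjusted p = 1.23e-08). Traf1 was under 1 FPKM in every library without antigen. It passed the filter only through the antigen libraries, so the filter itself favoured its place among the 11 higher. With IgE alone, Map3k14 fell (log2 -0.32, adjusted p = 0.00158), as did the ubiquitin ligase Birc3 (log2 -0.31, adjusted p = 0.00207), the deubiquitinase Cyld (log2 -0.15, adjusted p = 0.0178) and the adaptor Traf5 (log2 -0.20, adjusted p = 0.0180). The 1 rise with IgE was that of the death domain adaptor Fadd (log2 0.16, adjusted p = 0.0256), which fell with antigen from 7.87 ± 0.388 to 4.60 ± 0.0290 FPKM (log2 -0.66, adjusted p = 1.64e-06). The other 4 that fell with antigen were the protease Casp8, the ubiquitin ligase subunits Rbck1 and Sharpin, and Cyld (log2 -0.39, -0.37, -0.11 and -0.21). Fadd, Casp8, Rbck1 and Sharpin were named after their values were seen.

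Of 8 other ligands of the family, 1 was tested. Tnfsf8, the CD30 ligand, was at 9.18, 9.35 and 8.66 FPKM in untreated, 10.98, 10.1 and 9.75 FPKM in IgE and 17.9, 19.2 and 18.1 FPKM in antigen libraries. Its groups did not overlap, and it was higher with antigen than with IgE (log2 0.78, adjusted p = 2.24e-06) and with IgE than without (log2 0.16, adjusted p = 0.0457). Tnfsf11, Tnfsf18 and Cd40lg were listed at 0 in all 9 libraries. As for Cpa3, such rows may hold no RNA or may not have been counted.

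The genes whose 3 group means ran most like those of Tnf, by Euclidean distance between centred means of log2(FPKM + 1) over 3 conditions, were Ccl7, Tfrc and Mmd (distances 0.187, 0.299 and 0.308). Ccl7, a monocyte chemokine, was at 3.40 ± 0.611, 6.57 ± 0.579 and 49.98 ± 1.23 FPKM in untreated, IgE and antigen libraries. Among those most like Tnfsf14 were Nab2 and Olr1 (distances 0.148 and 0.246). Nab2, a corepressor of Egr factors, was at 3.91 ± 0.0483, 5.18 ± 0.336 and 57.6 ± 3.15 FPKM. Olr1 was at 0.00286 ± 0.00495, 0.00686 ± 0.0119 and 12.3 ± 0.724 FPKM. It was near 0 without antigen and passed the filter only through the antigen libraries. The 1 added to FPKM shrinks its log2 change, so its likeness to Tnfsf14 holds on that scale only.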

How the data were processed

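RNA was sequenced from 9 libraries, 3 in each of 3 groups taken from the sample titles. The authors deposited 1 table of FPKM per gene symbol and library. The submitters' processing notes name TopHat2 2.0.12, Bowtie 0.12.7 and the build mm9. Which program gave the FPKM, with which annotation and whether by strand, is not given in the sources used here.

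Genes at 1 FPKM or more in at least 3 libraries (10890 of 23951) were tested on log2(FPKM + 1), a scale that understates changes of low genes. The test was limma 3.58.1 (R 4.3.3) with 1 coefficient per group, trend, all 9 libraries in the fit and no covariate. Tests were two-sided and adjusted by Benjamini-Hochberg over all tested genes, with calls at 0.05. Plain folds are ratios of mean FPKM, and errors after ± are SD over 3 libraries. The fit was also run on simulated data with 200 changed genes and independent normal noise. Far more genes were called with antigen, so that run does not show how the fit performs there. Depth came from the spacing of low values in genes with a single GENCODE M21 transcript over 1000 bases, and estimated reads cover counting error only. Replicate pairs spread 1.20 to 1.78 times counting noise over genes with 20 to 1000 estimated reads, so none was taken for a repeat deposit. The members and lists were chosen with earlier results of these data known. All 10 ligands are named. Other lists give up to 4 called genes per comparison by smallest adjusted p, ties included, with receptors and genomic neighbours of the ligands added. For Tnf and Tnfsf14 the 3 genes with the most similar group means were sought, and 1 of those for Tnfsf14 is not reported here. Alternatives that sum rows with the readthrough row, or that drop both IgE replicate 3 and antigen replicate 3, were chosen after seeing the data.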

Additional observations from a re-analysis of the deposited data

How the results depend on the processing

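Over 24 ligand differences no alternative turned a direction. The alternatives were pseudocounts of 0.1 and 0.5, no filter, a filter on the mean, 3 scalings, no trend, a fit of the compared groups alone, X and Y zeros as missing, a replicate block, each library left out, and those added after seeing the data. The calls that changed were Tnfsf9 for IgE versus untreated (also without the filter, adjusted p = 0.0570), Tnfsf13 for antigen versus untreated and the Tnfsf13 sums given above. Without IgE replicate 3 and antigen replicate 3 together, Tnfsf4 and Tnfsf12 were also called in IgE versus untreated (adjusted p = 0.0288 and 0.0391). Asking for a 2-fold difference on the log2(FPKM + 1) scale left 4, 0 and 4 ligands called for antigen versus IgE, IgE versus untreated and antigen versus untreated, and 1145, 9 and 1219 of all genes. With 1 library left out, 8, 4 to 5 and 6 to 7 ligands were called in the same order, and 7254 to 7862, 1914 to 3887 and 7286 to 8194 genes. The lowest count for IgE versus untreated, 1914 against 2999, came without untreated replicate 1.

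With a replicate block, 8, 4 and 7 ligands and 7553, 2500 and 7620 genes were called, and Tnfsf9 in IgE versus untreated was the 1 ligand call lost (adjusted p = 0.0555). Between groups, deviations of same-numbered libraries correlated at -0.15 to 0.35 and those of differently numbered ones at -0.35 to 0.24. Those ranges overlap and do not settle whether the numbers mark pairs. The main fit did not take them as pairs. Lta and Fasl are limited by their few reads, no more than 6.2 estimated.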
